A study of Mus musculus with 35 samples.

Results

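Whole lungs of mice that had breathed 1 ppm styrene were compared with whole lungs of mice that had breathed clean air (0 ppm). The comparison takes the 5 arrays labelled 1 ppm and the 5 labelled 0 ppm, which are 10 of the 35 arrays of a study with 7 dose groups. Both groups were adult male wild type C57Bl/6 mice from Taconic. Each was placed alone in a wire-mesh cage and exposed once for 6 h, and tissue was collected the next morning after sodium pentobarbital and exsanguination. RNA was read on Affymetrix HT MG-430 PM arrays, and values are log2 signals of 17097 genes, each represented by its brightest probe set. The arrays are labelled as biological replicates. The titles of 1 ppm replicate 5 and of an array at 5 ppm both carry animal number 15. These 2 arrays held different values (Pearson's r = 0.984 over all probe sets, 102 identical values of 45141).

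Styrene is a volatile aromatic hydrocarbon. In the mouse lung it is oxidised mainly by cytochromes of club cells, the secretory cells of the small airways, among them Cyp2f2 and Cyp2e1. Epoxide hydrolases and glutathione transferases act on the oxidation products. A lung homogenate also holds airway and vascular smooth muscle, the mesothelium that covers the pleura, resident macrophages, blood cells and variable amounts of tissue from outside the lung. In such a sample fewer cells of a type and less RNA per cell cannot be told apart.

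None of the 17097 genes reached an adjusted p under 0.05 in limma when 1 ppm was set against 0 ppm (0 called, 0%). The lowest adjusted p was 0.105, shared by Ces1g, Msln, Cd300c2 and Il18. An unadjusted p below 0.05 was found for 1190 genes (6.96%). Of these, 432 (2.53%) were higher and 758 (4.43%) lower at 1 ppm than at 0 ppm. That split moved with the scaling of the arrays. It was 200 higher and 1008 lower with each array centred on its median, and 658 higher and 594 lower with the level trend of each array removed. It was 664 and 643 without 1 ppm replicate 2, 580 and 610 without 1 ppm replicate 5, and 548 and 537 without 0 ppm replicate 1. For 373 genes (2.18%) the 5 values at 1 ppm did not overlap the 5 at 0 ppm, 97 of them higher (0.567%) and 276 lower (1.61%). The lists with the largest medians among those with at least 8 measured genes were cardiac muscle, smooth muscle and adipocyte markers on the higher side and mesothelial markers on the lower side.

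**Figure D1:**
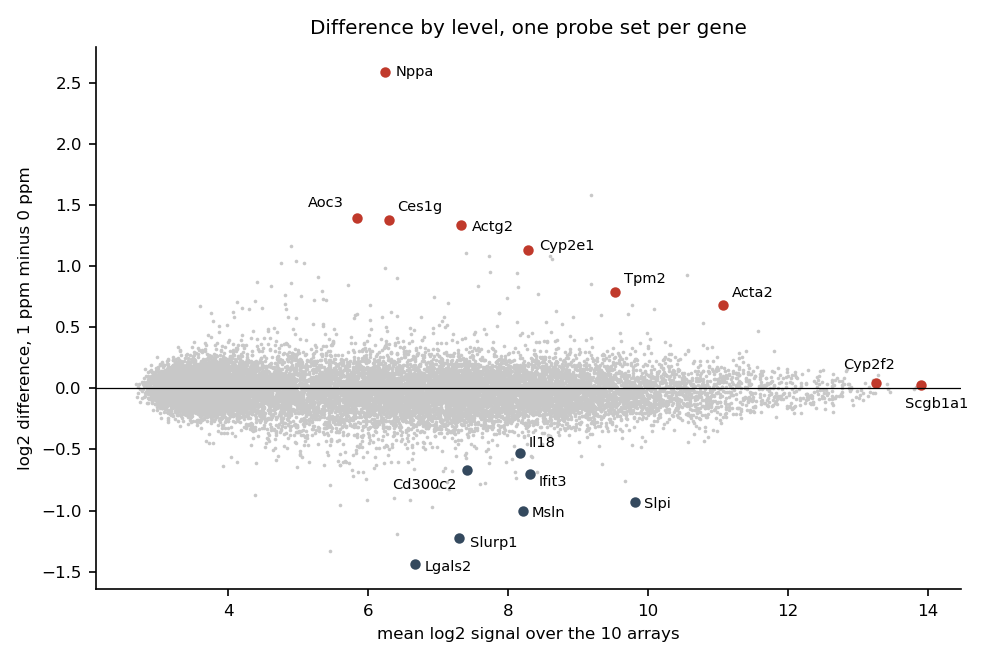
Log2 difference, 1 ppm minus 0 ppm, of each of 17097 genes (grey points) against its mean log2 signal over the 10 arrays. Labelled genes are those described in the text, in red where higher and in dark blue where lower at 1 ppm. Nppa lies at 2.59 and Lgals2 at -1.44, and the cytochrome Cyp2f2 and the club cell protein Scgb1a1 lie near 0.

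The precision of the comparison was set by 5 arrays a group. The median standard error (SE) of a difference was 0.12 on the log2 scale, and the median 95% interval reached 0.25 to each side. For 16883 genes (98.7%) the whole interval lay within a 2-fold difference in either direction. Only 7881 of the 17097 genes had a brighter group whose mean exceeded the highest nonspecific control of its arrays. For the others the interval bounds a signal near or under background and not the transcript. In simulated arrays 200 of 17097 genes were set to differ, with independent normal noise of each gene's spread pooled over the doses. Of genes set to a log2 difference of 0.5, 70% were called, and of those set to -0.5, 60%. The shares were 92% at 1 and 98% at -1, beside 9 of 16897 unchanged genes called. Adjusted p-values also depend on how many genes differ, here set to 200. Variation that genes share within an array was left out as well, so these shares need not hold for the real arrays. There, 20 genes differed by more than 1 in size and 0 were called. Array summaries (signal quartiles, poly-A spike-ins, hybridisation and nonspecific controls, 3' minus 5' differences of control genes) were compared by two-sided exact permutation tests, and the smallest of 10 p-values was 0.0556 (adjusted p = 0.556) for the Gapdh 3' minus 5' difference. Along the first principal component of the 10 arrays (41.6% of variance), 1 ppm replicate 2 lay at 31.9 and 1 ppm replicate 3 at -41.7, with the other 8 arrays between them. Markers of the main lung cell types were present in both groups. Sftpc, the surfactant protein of alveolar type 2 cells, averaged 13.84 ± 0.04 at 1 ppm and 13.83 ± 0.01 at 0 ppm (SD, n = 5 each). Ager, a marker of alveolar type 1 cells, averaged 13.44 ± 0.06 at 1 ppm and 13.46 ± 0.03 at 0 ppm. Both exceed log2 12, where signals may be compressed, as does the globin Hba-a1 (13.80 in each group), so these levels check presence only. In the range below, Tppp3 of ciliated cells averaged 11.64 ± 0.17 at 1 ppm and 11.56 ± 0.16 at 0 ppm, Ramp2 of endothelium 11.97 ± 0.10 and 11.88 ± 0.04, Mfap4 of fibroblasts 11.05 ± 0.21 and 11.17 ± 0.33, and Cd209a of dendritic cells 6.97 ± 0.29 and 7.14 ± 0.30, in the same order of doses. The brightest plasma cell and squamous epithelium markers, Derl3 and Sprr1a, were under the background of every array, measured as its brightest nonspecific control, and the skeletal muscle kinase Ckm was so on 4 arrays at 1 ppm and 5 at 0 ppm.

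Regulatory sequence helps to place the gene groups below, so 4 promoter windows are shown, 2 of interferon response genes and 2 of muscle actins. They run from 250 bases before to 50 after the RefSeq start site (GRCm38.p6) and are written 5′ to 3′ on the gene's strand. In Ifit3 and Gbp2 the capitals mark the interferon-stimulated response element, searched on both strands as GAAA, any 2 bases and GAAA. In Acta2 and Actc1 they mark the CArG box, the binding site of serum response factor that is known from muscle actin genes, in Acta2 with 1 core base free. Actc1 is marked for the strict box only. The upstream match marked in Acta2 also stands in the Actc1 window, in small letters.
Ifit3 (chr19:34583279-34583578, plus strand): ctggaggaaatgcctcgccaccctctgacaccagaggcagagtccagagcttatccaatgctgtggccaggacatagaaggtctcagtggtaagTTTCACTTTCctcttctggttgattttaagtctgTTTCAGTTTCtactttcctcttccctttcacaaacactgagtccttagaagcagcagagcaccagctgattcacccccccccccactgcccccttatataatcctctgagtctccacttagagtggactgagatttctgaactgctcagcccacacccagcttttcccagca
Gbp2 (chr3:142620413-142620712, plus strand): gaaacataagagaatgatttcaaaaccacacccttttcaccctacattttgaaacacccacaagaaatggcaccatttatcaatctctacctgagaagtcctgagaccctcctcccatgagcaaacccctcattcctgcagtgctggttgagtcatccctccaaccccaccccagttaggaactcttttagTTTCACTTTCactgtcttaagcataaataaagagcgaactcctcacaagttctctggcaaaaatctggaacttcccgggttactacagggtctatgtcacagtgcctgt
Acta2 (chr19:34255324-34255623, minus strand): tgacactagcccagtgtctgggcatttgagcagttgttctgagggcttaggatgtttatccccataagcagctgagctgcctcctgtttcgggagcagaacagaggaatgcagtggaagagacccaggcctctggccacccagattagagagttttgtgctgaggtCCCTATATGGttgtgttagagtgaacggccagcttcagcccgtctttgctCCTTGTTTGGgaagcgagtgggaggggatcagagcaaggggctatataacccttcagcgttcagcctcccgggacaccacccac
Actc1 (chr2:114052826-114053125, minus strand): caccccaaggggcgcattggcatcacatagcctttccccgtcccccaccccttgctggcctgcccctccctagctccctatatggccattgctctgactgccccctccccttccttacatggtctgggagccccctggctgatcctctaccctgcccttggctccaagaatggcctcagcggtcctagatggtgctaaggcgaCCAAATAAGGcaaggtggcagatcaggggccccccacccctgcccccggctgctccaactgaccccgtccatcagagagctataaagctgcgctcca
Of 19 measured interferon response genes with a window, 13 held the first motif (68.4%), against 3.44% of all 32851 windows. The strict CArG box stood in 3 of 16 cardiac muscle genes (Ldb3, Actc1 and Myl7), in 0 of 4 smooth muscle genes with a window and in 1.63% of all windows. With 1 core base free it stood in 1 of 4 smooth muscle genes (Acta2), 4 of 16 cardiac muscle, 4 of 20 immediate early and 1 of 5 mesothelial genes, and in 9.98% of all windows. A match describes these letters and is no measurement of binding.

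Contractile genes of smooth muscle were higher at 1 ppm. All 8 measured smooth muscle and pericyte markers had a positive difference, with a median of 0.65 against -0.01 over all genes, and 7 of the 8 had an unadjusted p under 0.05, against 2.53% of all genes in that direction. None passed the adjusted threshold. Acta2, the alpha-actin of smooth muscle, was at 11.66, 10.76, 11.49, 11.46 and 11.71 in replicates 1 to 5 at 1 ppm, against 10.70, 11.03, 10.87, 10.61 and 10.46 at 0 ppm. Only 1 ppm replicate 2 lay within the range of the 0 ppm arrays. The difference was 0.68 (SE 0.15, 1.60-fold, adjusted p = 0.139 in limma). Actg2, the gamma-actin of visceral smooth muscle, was at 8.72, 6.84, 8.08, 7.75 and 8.59 at 1 ppm, against 6.35, 7.22, 7.21, 6.55 and 5.98 at 0 ppm, and here too replicate 2 alone overlapped the 0 ppm values. Its difference was 1.33 (SE 0.31, adjusted p = 0.198 in limma).

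Further genes of the contractile filament followed the same arrays. Cnn1, the actin-binding protein calponin, averaged 8.27 ± 0.84 at 1 ppm and 7.19 ± 0.60 at 0 ppm (SD, n = 5 each). Des, the muscle intermediate filament desmin, averaged 8.17 ± 0.49 at 1 ppm and 7.55 ± 0.18 at 0 ppm. Tpm2, a tropomyosin that stood outside the list, was at 10.40, 9.13, 10.08, 9.65 and 10.38 at 1 ppm, against 8.98, 9.40, 9.38, 9.10 and 8.83 at 0 ppm, a difference of 0.79 (SE 0.18). Of its 3 other probe sets, the 1 well above the array background differed by 0.81 (SE 0.19), and the other two, both near background, by 0.26 and 0.28. At 1 ppm, replicate 2 was the lowest array for Acta2, Actg2 and Tpm2. Leaving out any other single array of the 10 gave 0 genes or 1 past the adjusted threshold. Without 1 ppm replicate 2, 6 genes passed it, all of them higher. In limma they were Acta2 (0.85, adjusted p = 0.0044), Tpm2 (0.99, 0.0128), Actg2 (1.62, 0.0216), the leucine-rich glycoprotein Lrg1 (0.79, 0.0216), the carboxylesterase Ces1g (0.0401) and Smr2 (0.0401), whose mean signal lay under background in both groups.

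The smooth muscle list as a whole summed to between 2872 and 5545 signal units at 1 ppm, against 2266 to 3266 at 0 ppm. Its mean log2 level was 7.39 in 1 ppm replicate 2 and 7.83 or more in the other 4 arrays at 1 ppm, against 7.01 to 7.51 at 0 ppm. The number of its members with p under 0.05 stayed between 5 and 7 when each of the 10 arrays was left out in turn, with a median difference of 0.47 to 0.80. Aoc3, an amine oxidase of vascular smooth muscle and adipocytes, was at 6.75, 5.46, 7.11, 5.89 and 7.51 at 1 ppm, against 5.26, 5.49, 5.68, 4.87 and 4.43 at 0 ppm. All 5 arrays at 0 ppm and 2 at 1 ppm (replicates 2 and 4) gave less signal than the brightest nonspecific control of the same array. Set against that background at 0 ppm, the 1 ppm mean was 1.38-fold higher (adjusted p = 0.236 in limma for the measured signals). As 2 of the 1 ppm arrays were under background themselves, this fold is no strict lower bound.

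**Figure D2:**
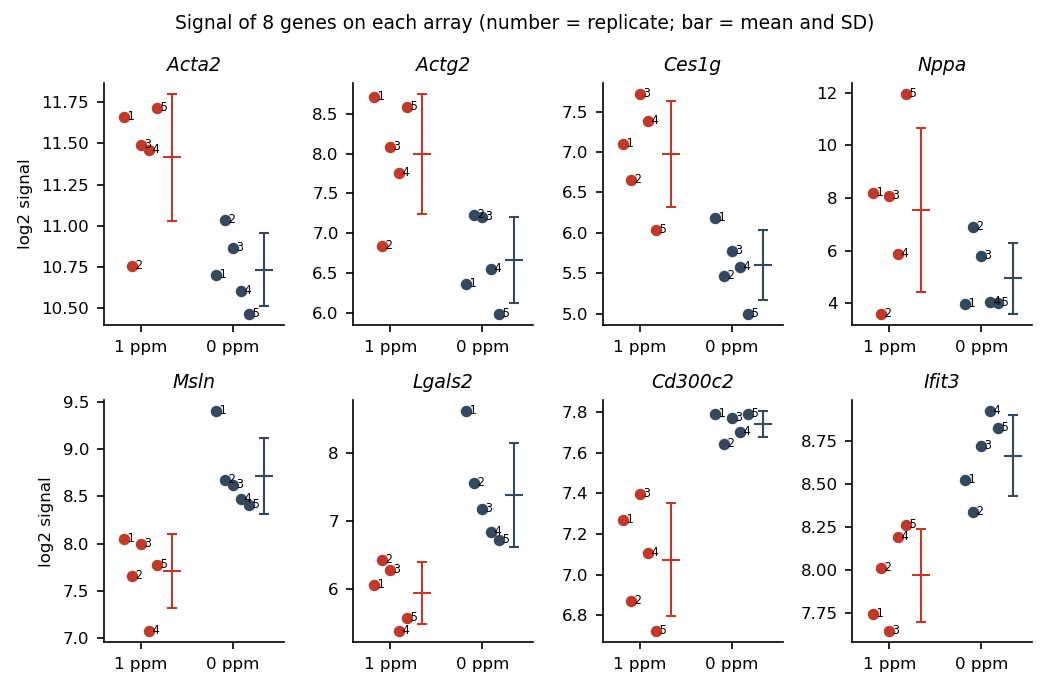
Log2 signal of 8 genes on each array, 1 ppm at the left and 0 ppm at the right of each panel. Numbers beside the points are replicates, and bars are the mean and SD of 5 arrays. 1 ppm replicate 2 lies low for Acta2, Actg2 and Nppa, while for Msln, Lgals2, Cd300c2 and Ifit3 no array at 1 ppm reaches the range of the 0 ppm arrays.

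Heart muscle genes were higher on average as well, with a much wider spread. All 16 measured cardiac muscle markers had a positive difference (median 0.73), and 6 had an unadjusted p under 0.05, against 2.53% of all genes in that direction. In 9 of the 16 the brighter group averaged above the background control. Of the 6, only Actc1 and Nppa were among these 9. The list summed to between 1225.5 and 19820 signal units at 1 ppm, against 2242 to 4849 at 0 ppm. Nppa, the atrial natriuretic peptide, was at 8.21, 3.59, 8.06, 5.87 and 11.95 at 1 ppm, against 3.97, 6.91, 5.79, 4.05 and 4.01 at 0 ppm. The highest and the lowest of the 10 values both belong to 1 ppm arrays, replicates 5 and 2. Its difference was 2.59 with an SE of 1.02 (adjusted p = 0.639 in limma), and 2 arrays at 1 ppm and 4 at 0 ppm were dimmer than that background control.

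Actc1, the cardiac alpha-actin, was at 10.40, 8.72, 10.79, 9.98 and 11.49 at 1 ppm, against 9.37, 9.97, 9.77, 9.04 and 8.84 at 0 ppm, and Myl7, the atrial myosin light chain and brightest member, averaged 10.40 ± 1.54 at 1 ppm and 9.75 ± 0.57 at 0 ppm. Both groups overlapped for both genes. The count of cardiac members with p under 0.05 was 15 without 1 ppm replicate 2 and 1 without 1 ppm replicate 5, and 1 when only these 10 arrays were fitted. The median was 1.23 without 1 ppm replicate 2 and 0.26 without 1 ppm replicate 5, and the Nppa and Actc1 differences without replicate 5 were 1.49 and 0.58. Atrial muscle sheathes the pulmonary veins in mice and the heart adjoins the dissected lung. Of the smooth muscle list, Acta2 and Des are also made by heart muscle. The part of heart muscle in the smooth muscle values was not tested. Without 1 ppm replicate 5, which had the highest cardiac level, smooth muscle members differed by 0.61 for Acta2, 1.19 for Actg2 and 0.88 for Cnn1. Cardiac levels of 1 ppm replicates 1 and 3 (7.39 and 7.61), which stay in that fit, also lay above the 6.02 to 7.04 of the 0 ppm arrays. At 1 ppm, replicate 5 was highest and replicate 2 lowest in both lists. Their cardiac levels were 9.195 and 5.28, and their smooth muscle levels 8.315 and 7.39.

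Genes of the mesothelium were lower at 1 ppm. All 10 members had a negative difference (median -0.68), 7 had an unadjusted p under 0.05 against 4.43% of all genes in that direction, and for 5 the 2 groups did not overlap, against 1.61% of all genes. None passed the adjusted threshold. Msln, the surface protein mesothelin, was at 8.05, 7.66, 7.999, 7.07 and 7.78 at 1 ppm, against 9.40, 8.68, 8.62, 8.47 and 8.41 at 0 ppm. Every value at 1 ppm lay below every value at 0 ppm, and 0 ppm replicate 1 stood above the other 0 ppm arrays. The difference was -1.004 (SE 0.20, adjusted p = 0.105 in limma), and -0.83 without 0 ppm replicate 1. Upk3b, a uroplakin that marks mesothelial cells, was at 9.30, 9.31, 9.68, 8.81 and 9.33 at 1 ppm, against 10.10, 10.10, 10.13, 9.97 and 9.91 at 0 ppm, again with no overlap.

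Other mesothelial members had the same order of groups. Lrrn4, a leucine-rich repeat membrane protein, averaged 6.43 ± 0.38 at 1 ppm and 7.40 ± 0.25 at 0 ppm (SD, n = 5 each). Gpm6a, a membrane glycoprotein that the mesothelium shares with neurons, averaged 8.06 ± 0.47 at 1 ppm and 8.75 ± 0.13 at 0 ppm, and here 1 ppm replicate 2 overlapped the 0 ppm arrays. The keratin Krt19, the brightest member and one shared with airway epithelium, averaged 10.90 ± 0.18 at 1 ppm and 11.09 ± 0.04 at 0 ppm. The list summed to between 3399 and 4358 signal units at 1 ppm, against 5152 to 6092 at 0 ppm. With each array left out in turn, 5 to 7 members had p under 0.05 and the median difference ran between -0.73 and -0.55.

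Among the 12 lower genes with the smallest p were 4 that encode secreted proteins, none past the adjusted threshold (adjusted p between 0.198 and 0.236 in limma). Lgals2, the sugar-binding galectin-2, was at 6.06, 6.43, 6.28, 5.37 and 5.57 at 1 ppm, against 8.62, 7.55, 7.17, 6.84 and 6.72 at 0 ppm, with 3 of the 1 ppm values under the background control. Its fitted difference of -1.44 (SE 0.33) therefore rests in part on signals at background, and its second probe set, dimmer, differed by -0.63 (SE 0.19). Slurp1, a small secreted Ly6 family protein, averaged 6.69 ± 0.36 at 1 ppm and 7.92 ± 0.71 at 0 ppm. Slpi, an antiprotease of mucosal secretions, averaged 9.35 ± 0.33 at 1 ppm and 10.28 ± 0.75 at 0 ppm, and Sbsn, suprabasin, averaged 7.28 ± 0.10 at 1 ppm and 8.05 ± 0.39 at 0 ppm. In all 4, 0 ppm replicate 1 was the highest of the 10 arrays, and only Slpi overlapped. Without that array the differences were -1.13 for Lgals2, -0.92 for Slurp1, -0.62 for Slpi and -0.62 for Sbsn.

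Several genes of myeloid cells were lower at 1 ppm. Cd300c2, a myeloid surface receptor, was at 7.27, 6.87, 7.40, 7.10 and 6.72 at 1 ppm, against 7.79, 7.64, 7.77, 7.70 and 7.79 at 0 ppm. The groups did not overlap, and the difference was -0.67 (SE 0.14, adjusted p = 0.105 in limma). Il18, an inflammasome-processed cytokine made by macrophages and epithelium, was at 8.09, 8.02, 7.86, 7.81 and 7.74 at 1 ppm, against 8.31, 8.38, 8.46, 8.54 and 8.47 at 0 ppm, a difference of -0.53 (SE 0.11, adjusted p = 0.105 in limma) with no overlap. Bcl2a1a, an antiapoptotic gene of leukocytes with near-identical copies that may share its probes, averaged 9.06 ± 0.13 at 1 ppm and 9.53 ± 0.07 at 0 ppm. Tyrobp, the signalling adaptor DAP12, averaged 10.35 ± 0.27 at 1 ppm and 10.79 ± 0.17 at 0 ppm. When the 120 ppm group was left out of the fit, Cd300c2 alone passed the threshold (adjusted p = 0.0402 in limma).

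Marker lists of leukocytes leaned the same way, with few members under a p of 0.05, against 4.43% of all genes on the lower side. Of 14 alveolar macrophage markers 13 had a negative difference (median -0.25) and 2 had p under 0.05, the sialic acid receptor Siglecf (-0.45, SE 0.14) and the nuclear receptor Pparg (-0.37, SE 0.14). Pparg was under background on 3 arrays at 1 ppm. Chil3, a chitinase-like protein and the brightest of the 14, averaged 12.24 ± 0.15 at 1 ppm and 12.29 ± 0.13 at 0 ppm. Of 10 monocyte and interstitial macrophage markers 3 had p under 0.05, all lower, among them Plac8 (-0.62, SE 0.18) and the macrophage receptor Adgre1 (-0.36, SE 0.12). NK cell markers had 3 of 9 lower, with granzyme Gzma averaging 7.76 ± 0.15 at 1 ppm and 8.44 ± 0.64 at 0 ppm. In 2 of the 9 the brighter group averaged above background, and of the 3 lower ones only Gzma did so. The 3 NK members numbered 0 without 0 ppm replicate 5, the array with the highest Gzma value. The alveolar macrophage count of 2 was 5 without 1 ppm replicate 2 (4 lower, 1 higher) or without 0 ppm replicate 1 (all lower), and leaving out 1 ppm replicate 5 or 0 ppm replicate 2 made it 4. Of 8 B cell markers 1 was lower, the receptor chain Cd79b (-0.57, SE 0.28), and of 8 T cell markers 2 were lower. The brighter group averaged above background in 3 of the 8 B cell and 0 of the 8 T cell markers. The brightest T cell marker, Cd3d, was under background on all 5 arrays at 1 ppm and 2 at 0 ppm. Neutrophil markers had 0 of 8 under p of 0.05, and S100a8, a neutrophil granule protein, ran from 8.34 to 11.62 at 1 ppm and from 8.53 to 11.12 at 0 ppm.

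**Figure D3:**
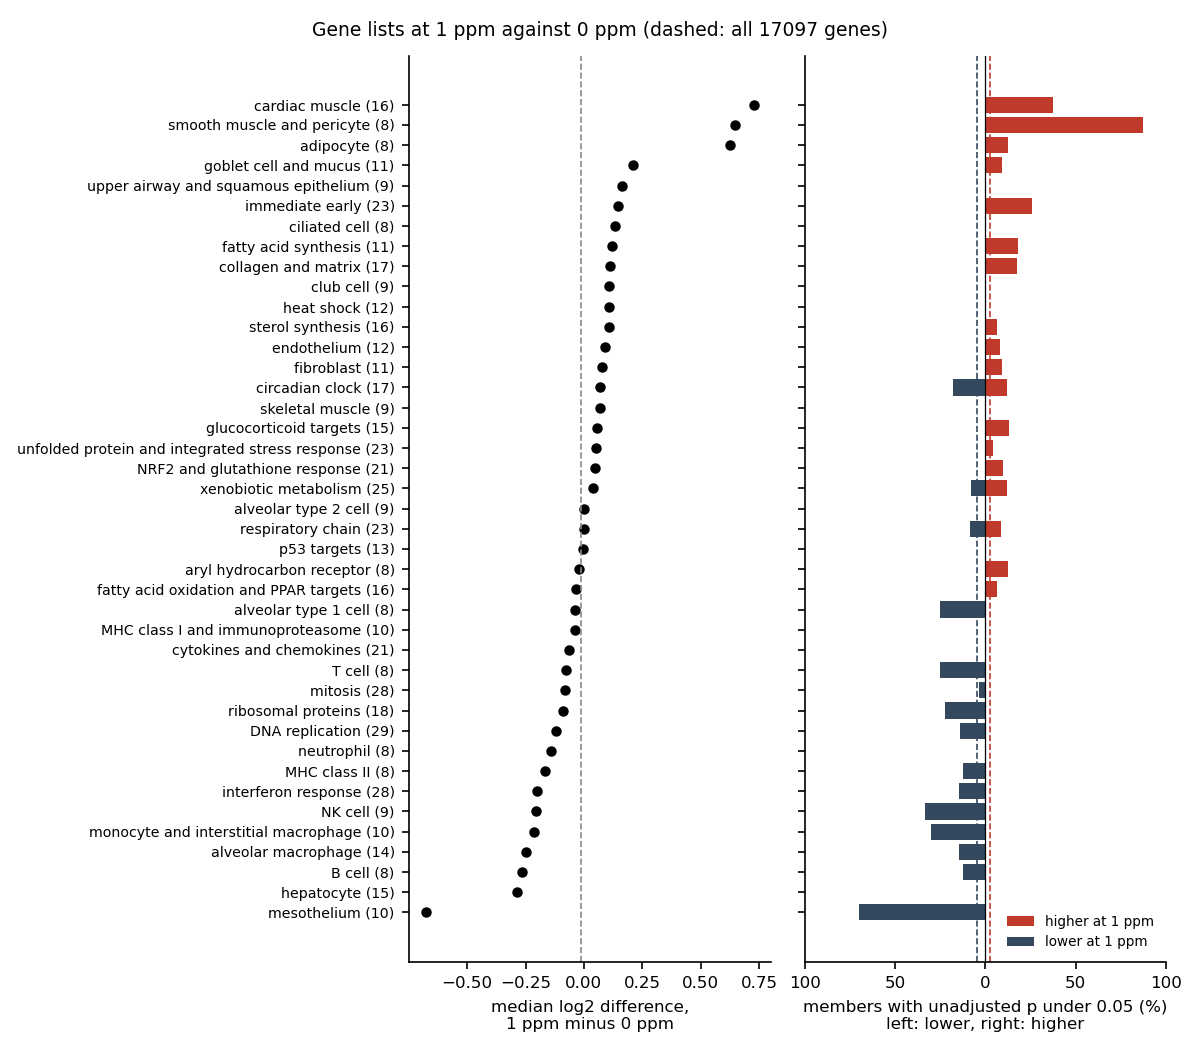
Gene lists with at least 8 measured members (number in brackets), ordered by median. Left, median log2 difference, 1 ppm minus 0 ppm; right, percent of members with an unadjusted p under 0.05, higher at 1 ppm to the right in red and lower to the left in dark blue; dashed lines are the values over all 17097 genes. Smooth muscle and mesothelial markers have the highest shares, 7 of 8 and 7 of 10.

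Interferon response genes, which cells switch on against viruses once interferon binds its receptor, were not higher at 1 ppm than in clean air. Of 28 members 23 had a negative difference (median -0.20), 4 of them with p under 0.05 against 4.43% of all genes in that direction, and 0 had p under 0.05 on the higher side. In 16 of the 28 the brighter group averaged above background, and of the 4 only Ifit3 and Gbp2 did so. Ifit3, an interferon-induced antiviral protein with 2 response elements in the window shown above, was at 7.74, 8.01, 7.64, 8.19 and 8.26 at 1 ppm, against 8.53, 8.33, 8.72, 8.92 and 8.83 at 0 ppm. The groups did not overlap (difference -0.70, SE 0.20, adjusted p = 0.327 in limma). Gbp2, a guanylate-binding protein with 1 element, was at 8.57, 8.99, 8.59, 8.81 and 9.03 at 1 ppm, against 9.34, 8.98, 9.31, 9.06 and 9.51 at 0 ppm. The count of 4 was 7 without 1 ppm replicate 5 and 2 without the 3 arrays with high hepatocyte markers.

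The next dose differed from 1 ppm most in these genes. Set directly against the 5 arrays at 5 ppm in the same fit, 275 genes (1.61%) were lower and 61 (0.357%) higher at 1 ppm with an adjusted p under 0.05, and all 28 interferon response genes were among the lower ones (median difference -2.30). Ifit3 averaged 7.97 ± 0.27 at 1 ppm and 11.27 ± 0.32 at 5 ppm, a difference of -3.31 (SE 0.20, adjusted p = 4.05e-14 in limma). Ifit1, another antiviral protein of this family, averaged 5.82 ± 0.94 at 1 ppm and 9.80 ± 0.26 at 5 ppm (adjusted p = 2.43e-11 in limma). Its 1 ppm mean lay under the 6.11 that the background control averaged on those arrays. Of 29 DNA replication genes 19 were lower at 1 ppm than at 5 ppm, as were 8 of 10 genes of antigen presentation on MHC class I and 8 of 28 mitosis genes. Many of these genes were dim at 1 ppm and 0 ppm. In the brighter of the 1 ppm and 0 ppm groups, 8 of 29 DNA replication and 1 of 28 mitosis genes averaged above background, against 9 of 10 MHC class I genes. These counts leave out the 5 ppm arrays, so they do not tell how many genes were above background there. The DNA replication list averaged 5.57 at 1 ppm and 6.23 at 5 ppm, and the mitosis list 4.37 and 4.81. Pcna, the sliding clamp of DNA polymerase, averaged 10.63 ± 0.08 at 1 ppm and 11.01 ± 0.08 at 5 ppm (adjusted p = 0.000469 in limma). Of 10 mesothelial genes 2 were lower at 1 ppm than at 5 ppm, Msln with a difference of -0.79 (adjusted p = 0.030 in limma) among them. Of the 8 smooth muscle members 1 was higher at 1 ppm than at 5 ppm, while Acta2 differed by 0.30 (SE 0.15, adjusted p = 0.407 in limma) and Actg2 by 0.30 (SE 0.31).

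**Figure D4:**
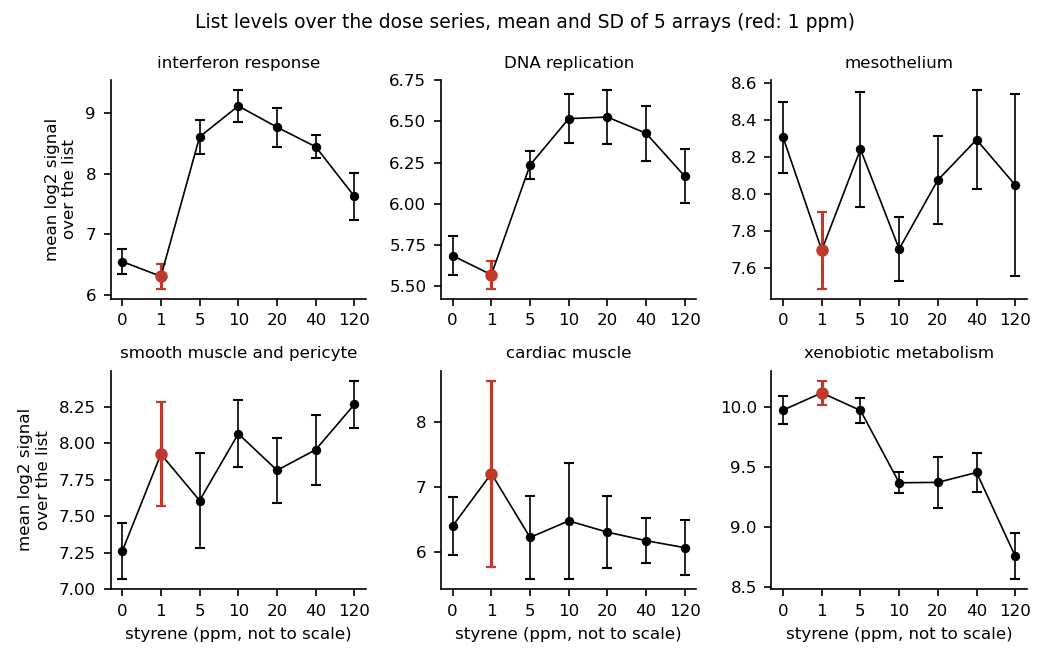
Mean log2 level of 6 gene lists over the dose series, in order of styrene dose (ppm, axis not to scale); points and bars are the mean and SD of 5 arrays, with 1 ppm in red. Over the 3 lowest doses the interferon response list had means of 6.55, 6.31 and 8.61, and mesothelial markers had means of 8.31, 7.69 and 8.24. At 10 ppm the mesothelial mean was 7.70, close to that at 1 ppm. Smooth muscle markers averaged 7.26 in clean air, 7.92 at 1 ppm and between 7.61 and 8.27 at the other doses.

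Of the cytochromes known to oxidise styrene in the mouse lung, neither had an unadjusted p under 0.05. Cyp2f2, the cytochrome of club cells, was at 13.36, 13.15, 13.27, 13.27 and 13.33 at 1 ppm, against 13.19, 13.31, 13.25, 13.23 and 13.21 at 0 ppm. The groups overlapped, and the 95% interval of the difference ran from -0.12 to 0.20. Scgb1a1, the club cell secretory protein, averaged 13.92 ± 0.03 at 1 ppm and 13.89 ± 0.04 at 0 ppm (SD, n = 5 each). Both genes exceed log2 12, a range in which signals may be compressed. Of 9 club cell markers 0 had p under 0.05. Cyp2e1, the other styrene-oxidising cytochrome, was at 9.64, 9.32, 8.90, 6.53 and 9.88 at 1 ppm, against 7.41, 7.30, 9.78, 8.01 and 6.12 at 0 ppm, so the groups overlapped over most of their range (difference 1.13, SE 0.80, 95% interval -0.50 to 2.76).

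Liver and fat transcripts varied between arrays of both groups beside Cyp2e1, which is also abundant in those tissues. Alb, albumin, was at 7.59, 11.75, 4.77, 4.58 and 4.30 at 1 ppm, against 4.94, 4.38, 11.19, 10.47 and 6.04 at 0 ppm. The hepatocyte list stood high in 1 ppm replicate 2 (mean level 8.52) and in 0 ppm replicates 3 (7.97) and 4 (6.93), and at 5.22 or lower in the other 7 arrays. Adipoq, the fat hormone adiponectin, averaged 7.95 ± 2.51 at 1 ppm and 6.61 ± 1.79 at 0 ppm. The part of these tissues in the other differences was not tested. Without the 3 arrays with high hepatocyte markers, 777 genes had an unadjusted p under 0.05 (381 higher, 396 lower), 5 of 8 smooth muscle genes were higher and 6 of 10 mesothelial genes lower.

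**Figure D5:**
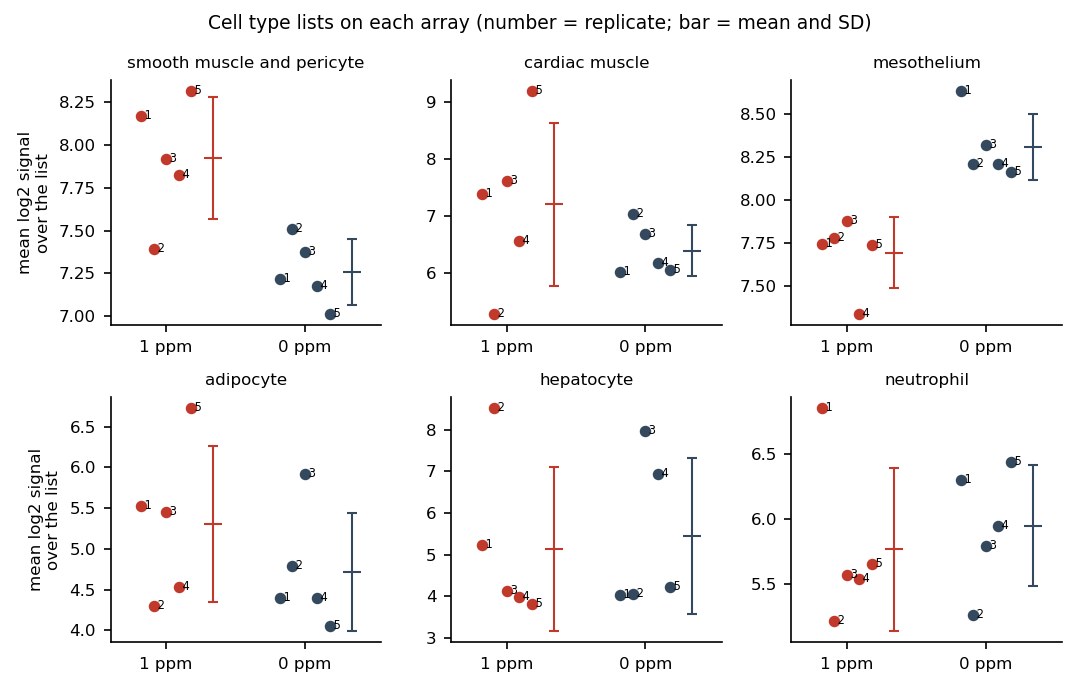
Mean log2 level of 6 cell type lists on each array, 1 ppm at the left and 0 ppm at the right of each panel; numbers are replicates and bars the mean and SD of 5 arrays. Mesothelial levels do not overlap, cardiac muscle and adipocyte levels spread widely at 1 ppm, and hepatocyte levels are high in 1 array at 1 ppm and 2 at 0 ppm.

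Among 25 xenobiotic metabolism genes 3 were higher and 2 lower at an unadjusted p under 0.05 (median 0.04), against 2.53% and 4.43% of all genes. Ces1g, a carboxylesterase, had the smallest p of all genes. It was at 7.10, 6.66, 7.72, 7.39 and 6.04 at 1 ppm, against 6.18, 5.47, 5.78, 5.58 and 4.99 at 0 ppm, and only 1 ppm replicate 5 came below the highest 0 ppm value. All 5 values at 0 ppm and that of 1 ppm replicate 5 were under the background control. Set against that background at 0 ppm, the 1 ppm mean of Ces1g was 1.87-fold higher (adjusted p = 0.105 in limma for the measured signals). With replicate 5 itself under background, this fold is no strict lower bound. Without 1 ppm replicate 5 it passed the threshold (adjusted p = 0.0098 in limma). The glutathione transferase Gsto1 averaged 11.80 ± 0.40 at 1 ppm and 11.33 ± 0.25 at 0 ppm, and the aldehyde dehydrogenase Aldh3a1 averaged 9.03 ± 0.55 at 1 ppm and 8.51 ± 0.42 at 0 ppm, a difference of 0.52 that was 0.34 without 1 ppm replicate 1. The 5 genes numbered 3 without 1 ppm replicates 1, 3 or 5 or 0 ppm replicate 3. The 2 lower ones were Pon1, the esterase paraoxonase, at -0.37 (SE 0.17), and the glutathione transferase Gstt1 at -0.25 (SE 0.11), or -0.16 without 1 ppm replicate 5. From clean air upward through the 7 doses Ces1g averaged 5.60, 6.98, 7.50, 6.25, 6.35, 6.13 and 4.54, so its highest mean was that of the 5 ppm group.

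Genes of the NRF2 response, which protects against electrophiles such as styrene oxide, had a median difference of 0.05, and 2 of 21 had p under 0.05, both higher, against 2.53% of all genes. They were Txnrd1, thioredoxin reductase, at 9.44, 9.13, 9.37, 9.37 and 9.24 at 1 ppm, against 8.99, 9.07, 9.08, 8.99 and 9.07 at 0 ppm, and the carbonyl reductase Cbr3 (0.34, SE 0.11). For Txnrd1 the groups did not overlap. The NRF2 count was 6, all higher, without 1 ppm replicate 2. Of 8 aryl hydrocarbon receptor genes Aldh3a1 alone had p under 0.05. In the lists of p53 targets, heat shock genes and cytokines and chemokines 0 members had p under 0.05. Without 0 ppm replicate 1, 3 cytokine genes did, all lower.

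Immediate early genes, which cells switch on within minutes of a stimulus or of handling, were higher in 6 of 23 cases at an unadjusted p under 0.05, against 2.53% of all genes (median 0.15), and 20 of the 23 differences were positive. Jund, an AP-1 transcription factor, was at 11.53, 11.32, 11.55, 11.54 and 11.42 at 1 ppm, against 11.27, 11.28, 11.14, 11.19 and 11.21 at 0 ppm, with no overlap (difference 0.26, SE 0.08). The Krüppel-like factor Klf4 differed by 0.40 (SE 0.14), Jun by 0.28 (SE 0.10) and the phosphatase Dusp1 by 0.31 (SE 0.13). The list's count was 3 without 1 ppm replicate 1. Clock genes had 2 of 17 higher, the repressor Cry1 (0.39, SE 0.17, and 0.22 without 1 ppm replicate 1) and the activator Npas2 (0.58, SE 0.27), and 3 lower, the output factors Dbp (-1.33, SE 0.57), Hlf (-0.47, SE 0.20) and Tef (-0.31, SE 0.15). Dbp and Hlf were dim genes, whose mean even at 0 ppm did not exceed the highest nonspecific control of those arrays. Their differences rest on signals near or under background. The clock count of 5 was 0 without 1 ppm replicate 1 or 0 ppm replicates 4 or 5, 3 without 1 ppm replicates 2 or 3, and 9 without 0 ppm replicate 1.

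Of 18 ribosomal protein genes 4 had p under 0.05, all lower, against 4.43% of all genes in that direction. For 4 the groups did not overlap, with lower values at 1 ppm, against 1.61% of all genes. Rpl32, of the large ribosomal subunit, was at 12.11, 12.04, 12.14, 12.15 and 12.01 at 1 ppm, against 12.37, 12.32, 12.28, 12.25 and 12.23 at 0 ppm, a difference of -0.20 (SE 0.05). Rps18, of the small subunit, differed by -0.17 (SE 0.05), Rpl19 by -0.14 (SE 0.05) and Rpl14 by -0.29 (SE 0.13). Most ribosomal protein genes have processed copies in the genome, and the first 3 lie above log2 12. The list summed to between 93450 and 98684 signal units at 1 ppm, against 99015 to 104420 at 0 ppm. Of 29 DNA replication genes 4 were lower, among them the origin complex subunit Orc6 (-0.33, SE 0.12), the helicase subunit Mcm7 (-0.32, SE 0.12) and Pcna (-0.17, SE 0.07). A second Mcm7 probe set of like brightness differed by -0.19 (SE 0.14). The ribosomal count was 2 without 0 ppm replicate 1 and the DNA replication count 2 without 1 ppm replicate 2. Mrpl32, of the mitochondrial ribosome, averaged 8.88 ± 0.09 at 1 ppm and 9.17 ± 0.06 at 0 ppm, without overlap. In the respiratory chain 2 of 23 genes were higher (Cyc1 and Uqcrc1, of complex III) and 2 lower (Ndufs8 and Ndufa2, of complex I), each with a difference of between 0.20 and 0.23 in size. Without 0 ppm replicate 4, 1 was higher and 1 lower.

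Matrix, lipid and epithelial lists each held 3 members or fewer at an unadjusted p under 0.05. Over all genes the shares were 2.53% higher and 4.43% lower. Of 17 collagen and matrix genes 3 were higher, against 2.53% of all genes. Among them were Col1a1 by 0.44 (SE 0.14, and 0.295 without 0 ppm replicate 2) and Col5a1 by 0.31 (SE 0.12). Without 1 ppm replicate 1, 4 were higher and 1 lower. Retnla, a resistin-like protein of type 2 inflammation counted with the goblet cell list, was at 11.20, 10.86, 10.88, 11.18 and 11.11 at 1 ppm, against 10.06, 10.74, 10.63, 10.68 and 10.46 at 0 ppm, with no overlap (difference 0.53, SE 0.17). Of 16 sterol synthesis genes 1 was higher, squalene epoxidase Sqle by 0.32 (SE 0.11). Of 11 fatty acid synthesis genes 2 were higher, among them the synthase Fasn by 0.21 (SE 0.10). Of 23 genes of the unfolded protein and integrated stress response 1 was higher, Hyou1. This chaperone of the endoplasmic reticulum differed by 0.24 (SE 0.10, and 0.14 without 1 ppm replicate 3). Its other probe sets, both dimmer, differed by 0.11 (SE 0.12) and 0.30 (SE 0.27). Pdk4, a kinase that restrains glucose oxidation, averaged 7.48 ± 0.86 at 1 ppm and 6.78 ± 0.53 at 0 ppm, a difference of 0.70 that was 0.33 without 1 ppm replicate 5. Of 8 alveolar type 1 markers 2 were lower, Pdpn (-0.27, SE 0.11) and Igfbp2 (-0.31, SE 0.13), against 4.43% of all genes. Leaving out 1 ppm replicate 5 made that count 0, and leaving out 1 ppm replicate 1, 0 ppm replicate 4 or 0 ppm replicate 5 made it 1. In other epithelial lists 0 of 9 alveolar type 2 and 0 of 8 ciliated cell markers had p under 0.05. Of 12 endothelium genes 1 was higher, the tight junction protein Cldn5 by 0.23 (SE 0.08). Of 11 fibroblast genes 1 was higher, the collagen Col13a1 by 0.24 (SE 0.11). Of 4 erythroid genes 1 was lower, Alas2, the first enzyme of haem synthesis in red cells, at -0.40 (SE 0.18). Without 1 ppm replicate 5 the Alas2 difference was -0.19.

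Genes outside the lists were also among those with the smallest p, with none past the adjusted threshold. Ybx3, a cold shock domain protein, was at 10.65, 10.77, 10.79, 10.71 and 10.67 at 1 ppm, against 10.48, 10.38, 10.52, 10.33 and 10.34 at 0 ppm, a difference of 0.31 (SE 0.07) without overlap. The nuclear factor Nfix (0.29, SE 0.08), the membrane protein Ckap4 (0.39, SE 0.09) and the centrosomal Cep85 (0.38, SE 0.09) did not overlap either. Cmip (0.29, SE 0.08) and Spry4, an inhibitor of receptor tyrosine kinase signalling (0.58, SE 0.16), had overlapping groups, and Spry4 was under background on 2 arrays at 1 ppm and 4 at 0 ppm. A second, dimmer Cmip probe set differed by 0.11 (SE 0.07). On the lower side Gtf2f2, a subunit of the general transcription factor TFIIF, averaged 6.75 ± 0.11 at 1 ppm and 7.14 ± 0.11 at 0 ppm, and the kinase Vrk2 averaged 5.98 ± 0.18 and 6.46 ± 0.19 at these doses, with 3 of the 1 ppm values under the background control. When each array was weighted by how well it matched its group, 43 genes passed the adjusted threshold (0.252%), 23 higher (0.135%) and 20 lower (0.117%). In limma they include Ces1g (adjusted p = 0.0017), Cd300c2 (0.0076), Msln and Acta2 (0.0167 each) and Il18 (0.0225). The weights were lowest for 1 ppm replicates 3 (0.47), 2 (0.55) and 5 (0.59) and 0 ppm replicate 1 (0.63).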

How the data were processed

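Values are log2 signals of 45141 probe sets on 35 arrays, as deposited by the authors. The submitters' processing notes name RMA and Partek, with no version or settings. RMA quantile-normalises arrays together, so a shift shared by all genes would be removed. Of the probe sets, 104 were controls and 28898 were listed with a single gene symbol; the probe set with the highest mean was kept for each of 17097 genes. The 7 dose groups were fitted in limma 3.58.1 (R 4.3.3) with lmFit and eBayes, and 1 ppm minus 0 ppm was tested two-sided with Benjamini-Hochberg adjustment over all genes at 0.05. The 28 residual degrees of freedom pool the spread of all doses. The number of arrays limits the precision. Labels do not say whether dissection, extraction or hybridisation was divided into batches.

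Members and lists (22 pathways, 22 cell types) were chosen with earlier results of these data known. Named were, outside provisional symbols and dim genes, the 12 higher and the 12 lower genes with the smallest p, up to 4 members of each list with p under 0.05, each cell type list's brightest member, genes past the threshold in an alternative with fewer than 10 (Smr2 among them, though dim), and Cyp2f2, Cyp2e1, Scgb1a1, Ces1g, Msln and Cd300c2. Dbp, Hlf and the genes set against 5 ppm were named after their values were seen. Folds set against background compare the 1 ppm mean with the background control where it exceeds the 0 ppm signal. They leave out the SE, and 1 ppm arrays under background keep their measured signal. Alternatives covered probe set choice, dim genes, the arrays fitted, variance, array weights, scaling, the replicate block and leaving out arrays. The fit was tested on simulated data.

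Replicate numbers do not pair the samples: same-numbered arrays correlated at 0.24, -0.44, 0.03, -0.18 and 0.42 in their deviations from group means.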

Additional observations from a re-analysis of the deposited data

Results flagged for a closer look

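Of 298 groups of 5 arrays checked, 23 held 1 array far from the other 4, where chance gives about 1 in 20. Among single genes, 1 ppm replicate 2 was low for Acta2 (10.76, others 11.46 to 11.71) and for the carbonyl reductase Cbr3 (8.89, others 9.41 to 9.60). 1 ppm replicate 5 was low for Pdpn (10.31, others 10.53 to 10.57) and Alas2 (8.56, others 9.48 to 9.80) and high for Pdk4 (8.98, others 6.83 to 7.43). 1 ppm replicate 4 was low for Plac8 (8.75, others 9.03 to 9.14), and 1 ppm replicate 1 was high for Scgb1a1 (13.97, others 13.90 to 13.91). In clean air, 0 ppm replicate 1 was high for Msln (9.40, others 8.41 to 8.68), Slurp1 (9.14, others 7.43 to 7.92) and Rpl19 (12.81, others 12.66 to 12.70). 0 ppm replicate 2 was low for Col1a1 (6.87, others 7.50 to 7.66) and high for Pon1 (11.07, others 10.75 to 10.81). 0 ppm replicate 3 was high for Cbr3 (9.24, others 8.94 to 9.01) and low for Ager (13.41, others 13.47 to 13.49).

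Mean list levels stood apart in 9 cases. 1 ppm replicate 5 was low for erythroid genes (7.73, others 8.25 to 8.32) and high for fatty acid oxidation genes (8.24, others 7.80 to 7.83), and 1 ppm replicate 4 was low for mesothelial genes (7.34, others 7.73 to 7.88). 1 ppm replicate 1 was high for neutrophil genes (6.85, others 5.21 to 5.65). 1 ppm replicate 3 was high for MHC class I genes (10.35, others 10.01 to 10.05) and MHC class II genes (8.99, others 8.65 to 8.72). 0 ppm replicate 1 was high for plasma cell genes (5.34, others 4.30 to 4.57) and DNA replication genes (5.89, others 5.59 to 5.67), and 0 ppm replicate 3 for fatty acid oxidation genes (8.18, others 7.76 to 7.86).

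Probe sets that the annotation used here lists with no gene were tested apart from the gene comparison. Of 15588, 9 passed an adjusted p of 0.05 in limma (smallest 0.0363), all of them higher at 1 ppm, by 0.40 to 0.66 on the log2 scale, and 1222 (7.84%) had an unadjusted p under 0.05. In 4 of the 9 even the brighter group was dimmer than the background control. The brightest averaged 8.25 at 1 ppm and 7.59 at 0 ppm. Leaving out 1 ppm replicate 2 or 4, or 0 ppm replicate 1, 3 or 5, gave a count of 0. Leaving out 1 ppm replicate 1 gave 3, replicate 5 gave 4 and replicate 3 gave 20.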

How the results depend on the processing

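The count of 0 genes past the threshold ran from 0 to 6 and the 1190 genes with an unadjusted p under 0.05 from 969 to 1307 when each array was left out in turn. The threshold count was 6 without 1 ppm replicate 2 and 1 without 1 ppm replicate 5. It was 1 without 1 ppm replicate 5 and the 5 ppm array that shares its animal number, 1 without the 120 ppm group (with 1817 genes at p under 0.05) and 43 with array weights (with 2340). Testing all non-control probe sets gave 3036 at p under 0.05 and 0 past the threshold. Of alternatives added after seeing the data, leaving out 1 ppm replicates 2 and 3 gave 1 gene past the threshold, and leaving out the 3 arrays with high hepatocyte markers gave 777 at p under 0.05 (smallest adjusted p = 0.0559 in limma). With the replicate block, 0 genes passed and 1354 had p under 0.05 (497 higher, 857 lower), and 2 of 5 arrays at 1 ppm correlated best with their own number. Genes chosen by the naming rule passed the threshold under an alternative in 27 cases, 18 of them with array weights, all in the direction reported. Smr2, outside that rule as a dim gene, passed with array weights too (adjusted p = 0.0221 in limma). Medians of the aryl hydrocarbon receptor, p53, alveolar type 2 and respiratory chain lists lie near 0 and change sign with the scaling. With 5 arrays a group, 0 genes passed in the main fit although 20 differed by more than 1 on the log2 scale. The simulated shares therefore give no limit of detection for these arrays. A gene under background on every array of a group has only a bound there.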
